A study of Mus musculus with 15 samples.

Results

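Genes of glucose uptake, glycolysis and glycogen were followed in ventricles of mice with Rbm20 mutations. The 31 members are 2 glucose transporters, 2 hexokinases, the enzymes that lead on to lactate, and 8 genes of glycogen breakdown and synthesis. They were taken by gene name out of 40174 gene symbols in the count tables. Of the 31, 30 passed the filter on low counts. The exception was Aldoc, the brain-type aldolase gene, which stood between 0 and 0.378 CPM in every library and was not tested. CPM are counts scaled to a common library size. They compare 1 gene between libraries but not different genes, for which CPM per kilobase of exon was used.

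Sugar enters glycolysis in heart muscle through glucose transporters of the cell surface, is phosphorylated by hexokinase and is then either stored as glycogen or broken down to pyruvate and lactate. Most steps are run by several isoforms from separate genes, of which some are typical of adult striated muscle and others of fetal or non-muscle cells. The adult heart draws most of its energy from fatty acids, and glucose and lactate supply a share that varies with feeding, hormones and load.

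RNA of the left ventricle was sequenced from C57BL/6 mice, 2 months old, that carried point mutations of Rbm20, the gene of an RNA-binding protein that regulates splicing of titin and other heart muscle transcripts. The groups were G-line HOM, homozygous for S639G, with 3 libraries; G-line HET, heterozygous for S639G, with 3; A-line HET, heterozygous for S637A, with 3; A-line HOM, homozygous for S637A, with 1; and WT, which carried neither mutation, with 3. Replicates 2 and 3 of A-line HOM were equal to replicates 2 and 3 of WT in the counts of all 40174 symbols. Each such pair was used once, as WT, which left 13 distinct libraries of 15. The labels do not settle which name is right, so every value set against WT rests on that choice. They also leave unsaid whether each library is another animal, and p-values then measure the spread among libraries, which may be technical.

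Total counts ran from 12959087 to 29436407 per library, with the A-line the shallowest, and the 31 genes took 1.05 to 1.40% of them. All 9 heart muscle marker genes were detected in every group. Their summed level was 37691 to 40933 CPM in G-line HOM, 45203 to 51145 in G-line HET, 38024 to 48464 in A-line HET and 43089 in A-line HOM, against 48355 to 53039 CPM in WT. That of the 7 fibroblast markers was 1793 to 2479 CPM in G-line HOM, 1199 to 2032 in G-line HET, 1275 to 2048 in A-line HET and 1416 in A-line HOM, against 888 to 1508 CPM in WT. In G-line HOM against WT, 4 of the 9 heart muscle markers were called lower and 3 of the 7 fibroblast markers higher. Of all genes tested, 13.3% were called lower and 13.1% higher in that comparison. The G-line HOM libraries thus lay below all WT libraries in the first sum and above them in the second, while the 6 endothelial markers, at 609 to 703 CPM in G-line HOM, 529 to 659.6 in G-line HET, 543 to 713.6 in A-line HET and 597 in A-line HOM, against 714.1 to 826 CPM in WT, were below WT in all mutant libraries. For the 5 erythroid markers the sum was 252 CPM in replicate 3 of G-line HOM and 1009.6 and 1082 in its other libraries, 412 to 597 in G-line HET, 321 to 532 in A-line HET and 308 in A-line HOM, against 289 to 388 CPM in WT. The part of these 4 lists in the results below was not tested. Myh6 was the largest part of the heart muscle sum, at 15827 to 18152 CPM in G-line HOM, against 23237 to 26119 CPM in WT. Of the 9 heart muscle markers, 6 lay below WT in all G-line HOM libraries, and of the 6 endothelial markers 3 did. Tnnt2 and Pecam1, 1 from each list, lay above all WT libraries in G-line HOM replicates 1 and 2. In bulk tissue, fewer cells of a type and less RNA per cell cannot be told apart. Atrial transcripts stood out in WT replicate 2, A-line HET replicate 3 and G-line HOM replicate 1, and a core clock gene in A-line HET replicate 2 and G-line HOM replicate 1. Mitochondrial ribosomal RNA took 10.8 to 13.5% of counts in G-line HOM, 15.4 to 16.7% in G-line HET, 13.2 to 17.1% in A-line HET and 15.1% in A-line HOM, against 20.2 to 23.4% in WT. With the mitochondrially encoded, ribosomal RNA, Xist and Y-linked genes left out before scaling, the same 21 members were called in G-line HOM against WT. The genes left out numbered 64 and took 11.7 to 23.9% of counts.

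Promoters of 5 members are shown because these genes carry the pattern described below. Slc2a1 and Pfkp were higher in G-line HOM, Pgam1 was higher where Pgam2, the other gene for the same reaction, was lower, and Phkg1 had the largest negative fold change of all members. Each run is 300 bases from RefSeq (GRCm38.p6, while the counts were made on GRCm39), 5′ to 3′ on the gene's strand, from 250 bases before the annotated start. Capitals mark matches to the motifs searched on both strands.
Slc2a1 (chr4:119108495-119108794, plus strand): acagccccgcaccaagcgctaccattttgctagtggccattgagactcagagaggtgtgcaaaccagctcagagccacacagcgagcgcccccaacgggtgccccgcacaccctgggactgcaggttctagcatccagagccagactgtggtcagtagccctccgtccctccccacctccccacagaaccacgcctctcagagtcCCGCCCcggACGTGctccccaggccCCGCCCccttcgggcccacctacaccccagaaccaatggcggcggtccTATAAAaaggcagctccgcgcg
Pfkp (chr13:6648722-6649021, minus strand): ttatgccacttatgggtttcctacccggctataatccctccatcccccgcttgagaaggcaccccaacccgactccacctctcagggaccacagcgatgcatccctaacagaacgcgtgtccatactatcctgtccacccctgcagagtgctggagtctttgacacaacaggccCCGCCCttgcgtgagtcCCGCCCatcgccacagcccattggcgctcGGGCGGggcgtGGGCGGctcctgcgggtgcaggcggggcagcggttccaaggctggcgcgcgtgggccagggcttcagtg
Pgam1 (chr19:41911621-41911920, plus strand): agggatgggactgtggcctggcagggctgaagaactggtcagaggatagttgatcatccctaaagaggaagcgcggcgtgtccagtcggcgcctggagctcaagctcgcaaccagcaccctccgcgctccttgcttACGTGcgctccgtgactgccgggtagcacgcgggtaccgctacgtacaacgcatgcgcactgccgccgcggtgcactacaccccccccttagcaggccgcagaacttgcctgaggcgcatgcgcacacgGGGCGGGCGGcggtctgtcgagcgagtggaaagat
Pgam2 (chr11:5803747-5804046, minus strand): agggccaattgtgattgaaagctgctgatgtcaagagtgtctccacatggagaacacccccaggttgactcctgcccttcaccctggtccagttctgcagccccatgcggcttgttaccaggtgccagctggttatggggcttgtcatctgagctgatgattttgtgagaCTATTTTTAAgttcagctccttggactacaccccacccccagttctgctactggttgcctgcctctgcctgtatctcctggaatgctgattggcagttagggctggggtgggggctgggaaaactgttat
Phkg1 (chr5:129879039-129879338, minus strand): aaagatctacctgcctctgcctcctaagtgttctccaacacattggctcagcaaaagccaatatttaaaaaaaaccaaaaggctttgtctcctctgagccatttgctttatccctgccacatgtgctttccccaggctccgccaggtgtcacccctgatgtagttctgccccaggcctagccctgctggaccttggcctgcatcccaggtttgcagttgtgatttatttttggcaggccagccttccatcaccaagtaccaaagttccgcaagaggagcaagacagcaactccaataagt
The hypoxia response core was searched as ACGTG. For the E-box of MYC and ChREBP type factors the letters CACGTG were used, so that each E-box match is also a match of the hypoxia core. The TATA box was searched as TATAAA. For the GC box the letters GGGCGG were used. The MEF2 site, bound by a muscle transcription factor family, was the fifth motif. The Slc2a1 window holds the hypoxia core at -36 and a TATA box match at 28 bases from the start, and 2 GC boxes. The Pfkp window holds 4 GC boxes. Pgam1 has the hypoxia core at -114 with 2 GC boxes, whereas Pgam2 has a MEF2 site at -80 and no other of these motifs. The Phkg1 window holds none of them. Of 31 members, 30 had at least 1 window in RefSeq's table, 48 windows in all; Slc2a4 is named only. The hypoxia core was in 21 of the 48 member windows (43.8%), against 19.6% of all 32851 windows of the same length. By gene, 17 of the 30 members held it in a window. Among them were Slc2a1, Hk1, Pgam1 and Ugp2, called higher in G-line HOM, and Hk2, Pfkm, Gapdh, Pygm, Pygb and Pgm1, called lower. Windows of the same gene can overlap, as for Aldoa, so that a site may be counted more than once. GC boxes were in 25 (52.1%) against 35.7%, E-boxes in 4 (8.33%) against 7.15%, TATA boxes in 3 (6.25%) against 13.6% and MEF2 sites in 2 (4.17%) against 3.19%. These are matches of letters, and which start is used in the heart was not measured.

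In ventricles homozygous for S639G most of these genes differed from WT, in both directions. In G-line HOM against WT, 21 of 30 tested members changed, 8 higher and 13 lower (edgeR quasi-likelihood test, Benjamini-Hochberg adjusted over all 17588 genes, threshold 0.05). Over all genes tested the same test called 26.4%, of which 13.1% were higher and 13.3% lower. Higher were Slc2a1, Hk1, Pfkp, Pgam1, Eno1, Phka1, Gbe1 and Ugp2. Lower were Slc2a4, Hk2, Pfkm, Pfkfb1, Gapdh, Pgam2, Eno3, Ldhb, Pygm, Pygb, Phkg1, Gys1 and Pgm1. At 5 of the steps with isoform genes (glucose transport, hexokinase, phosphofructokinase, phosphoglycerate mutase and enolase) the muscle gene was lower and a more widely expressed one higher. The Pgam1 and Eno1 calls among these were lost when certain single libraries were left out. Other steps differed. Pygm and Pygb were both lower, and Ldha and Pfkl were not called. At phosphorylase kinase the muscle subunit gene Phka1 was higher and the liver subunit gene Phka2 lower. The median log2 fold change was -0.24 over the 30 members and 0.0070 over all genes tested. In 6 members all G-line HOM libraries lay above all WT libraries and in 13 all lay below, while 41.7% of all genes tested had groups that did not overlap. With the shared pair left out, most of the higher calls were lost, those of Hk1, Pgam1, Eno1, Phka1, Gbe1 and Ugp2. Of the lower members, Gapdh and Pygb lost theirs. With the pair as A-line HOM, all of these were lost, and Slc2a1, Pfkfb1, Pgam2 and Eno3 as well. Both treatments leave WT replicate 1 as the only WT library. Without the libraries that held atrial transcripts 18 members were called, and without those with shifted clock genes 18. Over all genes tested the number called went from 4640 to 3544 and to 3725 in these settings.

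**Figure D1:**
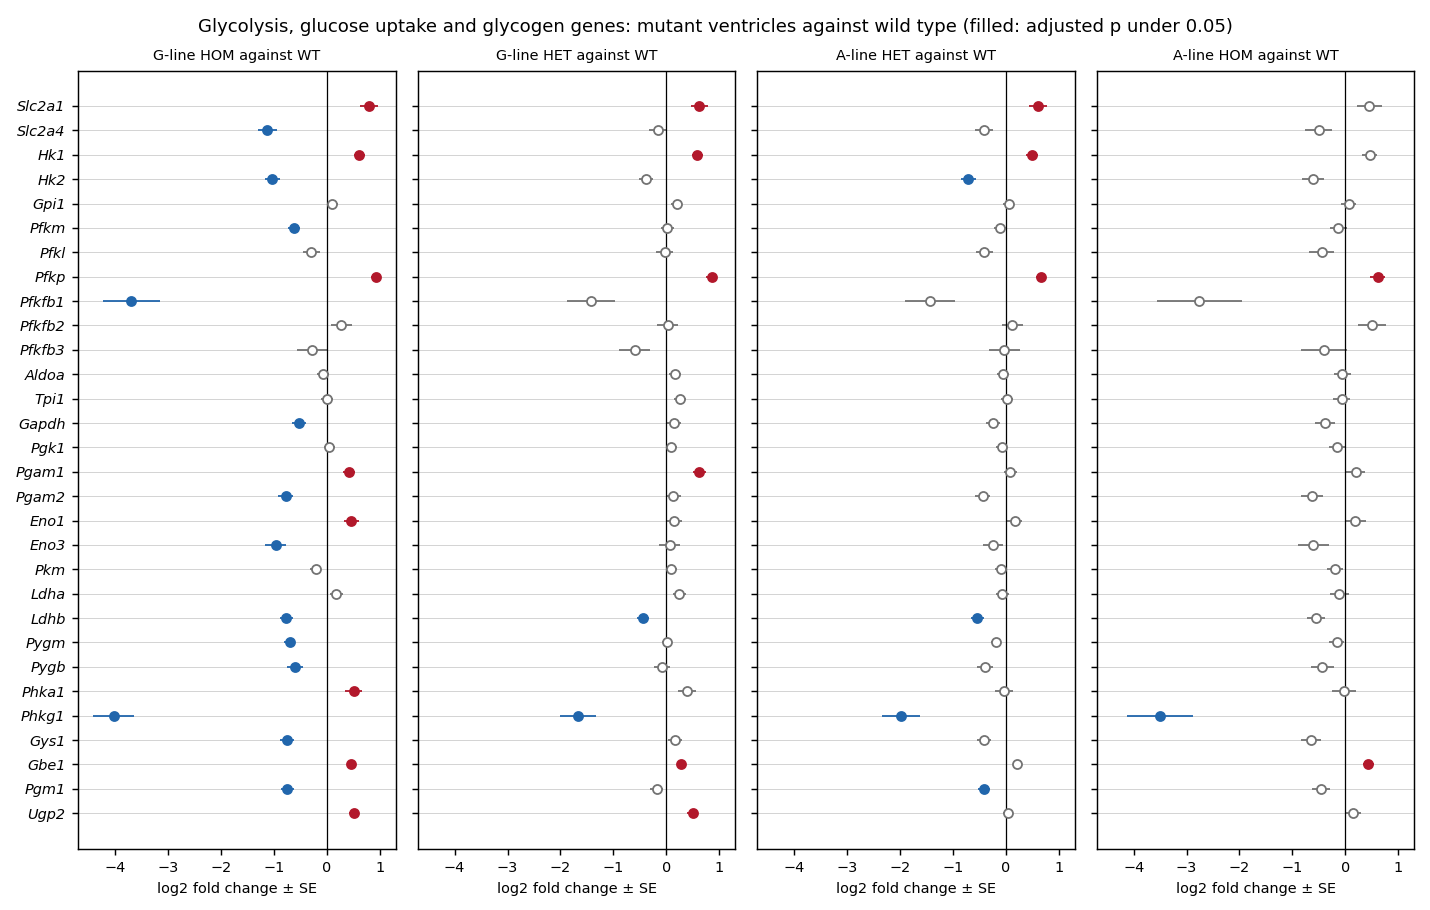
Log2 fold change ± SE of the 30 tested members (rows, in order of steps) in G-line HOM, G-line HET, A-line HET and A-line HOM against WT; filled points passed the test, red higher and blue lower. The left panel holds 21 filled points, 8 to the right of 0 and 13 to the left, against 8, 7 and 3 in the other panels.

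Glucose transport opens the pathway, and its 2 genes moved apart. Slc2a4, which encodes the insulin-responsive transporter GLUT4 of muscle and fat, stood at 124, 159.7 and 162 CPM in the G-line HOM libraries, 287, 299 and 285 in G-line HET, 329.7, 208 and 189 in A-line HET and 228 in A-line HOM, against 329, 304 and 337 CPM in WT. All 3 G-line HOM libraries lay below every other library, and A-line HET replicate 1 lay among the WT values while replicates 2 and 3 did not. Its log2 fold change in G-line HOM against WT was -1.12 ± 0.17 (SE; edgeR adjusted p = 0.000470). Slc2a1, which encodes GLUT1, a transporter of most cells and of the fetal heart, ranged over 8.59 to 12.2 CPM in G-line HOM, 8.50 to 10.6 in G-line HET, 8.12 to 10.6 in A-line HET and 8.63 in A-line HOM, against 5.87 to 7.05 CPM in WT. Every mutant library was above every WT library. The log2 fold change was 0.80 ± 0.16 in G-line HOM (edgeR adjusted p = 0.00250). Per kilobase Slc2a4 remained the more abundant transporter transcript in G-line HOM, at 52.9 ± 7.61 CPM per kilobase against 3.34 ± 0.612 for Slc2a1 (SD, n = 3).

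At hexokinase, the step that keeps glucose in the cell, the 2 isoform genes also moved apart. Hk2, the hexokinase typical of insulin-sensitive muscle, stood at 166, 216 and 217 CPM in the G-line HOM libraries, 317, 332 and 289 in G-line HET, 302, 238 and 209.8 in A-line HET and 268 in A-line HOM, against 459, 364 and 401 CPM in WT. The G-line HOM libraries lay below all WT and all G-line HET libraries, and every mutant library lay below every WT library. Its log2 fold change in G-line HOM was -1.03 ± 0.14 (edgeR adjusted p = 0.000139). Hk1, the hexokinase of most tissues, averaged 183 ± 28.1 CPM in G-line HOM, against 119 ± 4.48 CPM in WT (SD, n = 3 each), a log2 fold change of 0.62 ± 0.11 (edgeR adjusted p = 0.000859). Per kilobase of exon, G-line HOM had Hk1 at 37.6 ± 5.80 and Hk2 at 35.5 ± 5.15 CPM per kilobase, and WT had Hk1 at 24.6 ± 0.923 and Hk2 at 72.6 ± 8.51 (SD, n = 3 each). Gpi1, the glucose phosphate isomerase that follows, stood at 438, 456 and 366 CPM in the G-line HOM libraries, 481, 438 and 428 in G-line HET, 439.9, 394 and 383 in A-line HET and 409 in A-line HOM, against 374, 381 and 419 CPM in WT. G-line HOM overlapped WT and all G-line HET libraries lay above WT, but Gpi1 did not pass the test in any of the 6 comparisons.

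**Figure D2:**
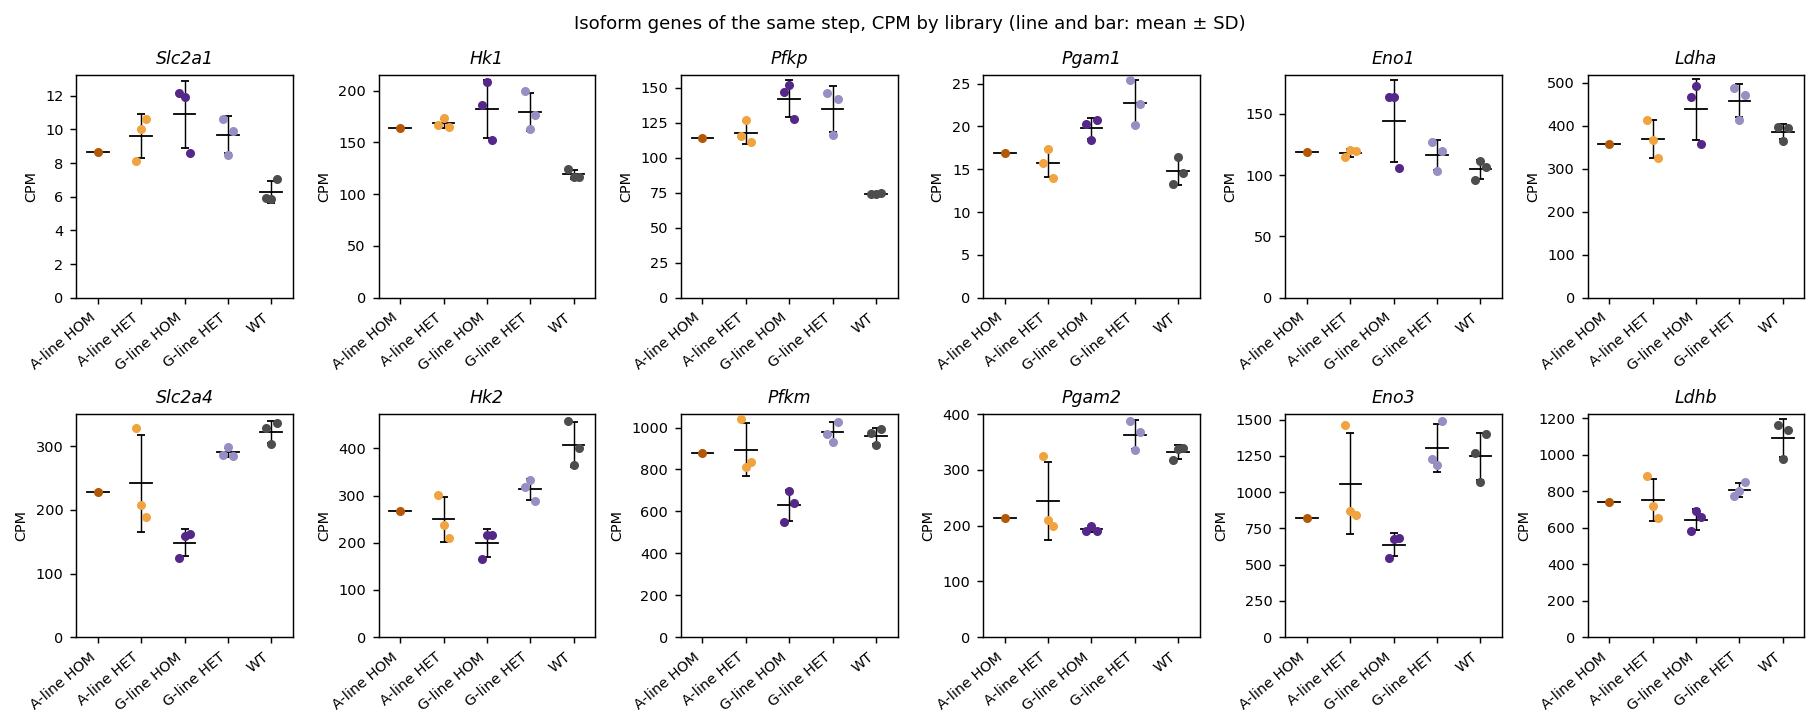
CPM in each of the 13 libraries for 6 isoform pairs, the widely expressed gene above and the muscle or heart gene below (Ldha above Ldhb); points are libraries, lines and bars the mean ± SD, and A-line HOM is 1 library. In G-line HOM the Slc2a4, Hk2, Pfkm, Pgam2, Eno3 and Ldhb points all lie below the WT points, and the Slc2a1, Hk1, Pfkp and Pgam1 points all lie above them.

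Phosphofructokinase, the main control point of glycolysis, is a tetramer of muscle (Pfkm), liver (Pfkl) and platelet (Pfkp) subunits. Pfkm stood at 549.5, 698 and 640.0 CPM in the G-line HOM libraries, 971, 933 and 1029 in G-line HET, 1041, 810.2 and 835 in A-line HET and 879 in A-line HOM, against 973, 918 and 993 CPM in WT. The lower level was seen in G-line HOM, with -0.61 ± 0.11 on the log2 scale (edgeR adjusted p = 0.00126), and the other groups overlapped WT or lay just below it. Pfkp had the smallest adjusted p of all members in G-line HOM against WT. It ranged over 127 to 152 CPM in G-line HOM, 116 to 146 in G-line HET, 111 to 127 in A-line HET and 114 in A-line HOM, against 74.3 to 74.7 CPM in WT. No mutant library came near the WT values, and the log2 fold change in G-line HOM was 0.93 ± 0.10 (edgeR adjusted p = 3.00e-05). Pfkp exons overlap 748 bases of Pitrm1 on the opposite strand, and whether counting used strand is not given. Pitrm1 itself was at 51.6 ± 4.55 CPM in G-line HOM, against 63.01 ± 4.61 CPM in WT (SD, n = 3 each), lower where Pfkp was higher. Pfkl averaged 68.9 ± 17.3 CPM in G-line HOM, against 84.3 ± 6.05 CPM in WT (SD, n = 3 each), and did not pass the test in any comparison.

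The Pfkfb genes encode enzymes that make and remove fructose 2,6-bisphosphate, the activator of phosphofructokinase. Pfkfb1, known as the isoform of liver and skeletal muscle, stood at 1.16, 0.754 and 2.82 CPM in the G-line HOM libraries, 7.34, 7.60 and 7.58 in G-line HET, 13.7, 5.48 and 3.78 in A-line HET and 2.97 in A-line HOM, against 19.03, 15.6 and 25.7 CPM in WT. All 3 G-line HOM libraries, and A-line HOM, were below 3 CPM, and every WT library was above every mutant library. The log2 fold change in G-line HOM was -3.69 ± 0.54 (95% interval -4.93 to -2.46; edgeR adjusted p = 0.000770). Fold changes of -1.42 ± 0.46 in G-line HET, -1.42 ± 0.47 in A-line HET and -2.76 ± 0.81 in A-line HOM on the same scale did not pass (edgeR adjusted p = 0.0965, 0.105 and 0.0885). Pfkfb2, the heart isoform and the leading gene of the 3, stood at 243, 237 and 257 CPM in the G-line HOM libraries, 200.2, 222 and 197 in G-line HET, 164, 233 and 264 in A-line HET and 287 in A-line HOM, against 268, 152 and 187 CPM in WT. All 3 G-line HOM libraries lay above all G-line HET libraries and within the WT range, but neither it nor Pfkfb3, the inducible isoform, passed the test in any comparison. Exons of Pfkfb2 overlap 154 bases of Yod1 on the opposite strand, which was higher in G-line HOM (0.73 ± 0.15, edgeR adjusted p = 0.00245). Pfkfb3 lay between 9.06 and 14.6 CPM in G-line HOM and between 11.6 and 20.3 CPM in WT.

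Aldolase and triose phosphate isomerase, which split the sugar and interconvert the products, were not called in any comparison. Aldoa, the muscle aldolase and the member with the highest CPM, stood at 1693, 1839.8 and 1474 CPM in the G-line HOM libraries, 2112, 1867 and 1934 in G-line HET, 1860.1, 1703 and 1537 in A-line HET and 1686 in A-line HOM, against 1714, 1636 and 1911 CPM in WT. G-line HOM overlapped WT but lay below G-line HET in all libraries. Tpi1, the isomerase, averaged 502 ± 48.7 CPM in G-line HOM and 601 ± 32.4 in G-line HET, against 500.4 ± 32.5 CPM in WT (SD, n = 3 each). Gapdh, which runs the first oxidation step and is often used as a reference gene, stood at 1173, 1283 and 1144 CPM in the G-line HOM libraries, 2009, 1781 and 1974 in G-line HET, 1826, 1352 and 1193 in A-line HET and 1325 in A-line HOM, against 1699, 1609.6 and 1876 CPM in WT. All 3 G-line HOM libraries lay below all WT libraries. The fold change was -0.53 ± 0.14 on the log2 scale (edgeR adjusted p = 0.00994), and it no longer passed without WT replicate 3 (edgeR adjusted p = 0.0509). Pgk1, the phosphoglycerate kinase that follows, was not called in any comparison, with 341 ± 29.8 CPM in G-line HOM, against 329 ± 30.2 CPM in WT (SD, n = 3 each).

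Phosphoglycerate mutase and enolase again split by isoform. Pgam2, the muscle mutase, ranged over 189.7 to 199.8 CPM in G-line HOM, 335 to 387 in G-line HET, 199.6 to 325 in A-line HET and 214 in A-line HOM, against 317 to 339.7 CPM in WT, with a log2 fold change of -0.78 ± 0.15 in G-line HOM (edgeR adjusted p = 0.00138). Pgam1 ranged over 18.4 to 20.8 CPM in G-line HOM, against 13.3 to 16.4 CPM in WT (0.42 ± 0.12 on the log2 scale, edgeR adjusted p = 0.0187). The call was lost when any of G-line HOM replicate 1, WT replicate 1 or WT replicate 3 was left out (edgeR adjusted p up to 0.0878). Eno3, the muscle enolase, stood at 548, 679.8 and 685 CPM in the G-line HOM libraries, 1230.0, 1185 and 1493 in G-line HET, 1462, 869 and 843 in A-line HET and 822 in A-line HOM, against 1268, 1073 and 1399 CPM in WT. G-line HOM libraries were the lowest of all, and the log2 fold change was -0.97 ± 0.20 against WT (edgeR adjusted p = 0.00281). Eno1, the enolase of most tissues, was called higher (0.46 ± 0.14, edgeR adjusted p = 0.0260), with 164, 164 and 106 CPM in G-line HOM, against 96.2, 111 and 107 CPM in WT. G-line HOM replicate 3 lay within the WT range. It also had the lowest erythroid sum and the highest mitochondrial ribosomal RNA share of its group, whose part was not tested. The Eno1 call was lost without any one of 4 libraries, G-line HOM replicates 1 and 2 and WT replicates 1 and 3 (edgeR adjusted p up to 0.117). Eno1 has processed copies elsewhere in the genome, so the division of its reads is uncertain. Pkm, the pyruvate kinase gene, averaged 865 ± 105 CPM in G-line HOM, against 1002 ± 53.9 CPM in WT (SD, n = 3 each), and was not called in any comparison.

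Lactate dehydrogenase interconverts pyruvate and lactate, and Ldhb encodes its heart subunit. Ldhb stood at 579, 689 and 661 CPM in the G-line HOM libraries, 772, 799 and 849 in G-line HET, 882, 721 and 653 in A-line HET and 741 in A-line HOM, against 1164, 974 and 1135 CPM in WT. Every mutant library was below every WT library, with the G-line HOM libraries at or near the bottom. The log2 fold change was -0.76 ± 0.12 in G-line HOM (edgeR adjusted p = 0.000345). Ldha, the skeletal muscle subunit, averaged 438 ± 71.6 CPM in G-line HOM, against 386 ± 17.8 CPM in WT (SD, n = 3 each), and was not called (edgeR adjusted p = 0.310).

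All 4 genes of glycogen breakdown changed in G-line HOM. Phkg1 encodes the catalytic subunit that, within phosphorylase kinase, switches glycogen phosphorylase on in muscle. It stood at 2.35, 0.801 and 1.31 CPM in the G-line HOM libraries, 7.30, 9.15 and 7.36 in G-line HET, 9.93, 3.56 and 6.06 in A-line HET and 2.23 in A-line HOM, against 24.05, 30.7 and 21.2 CPM in WT. Each WT library was more than 2 times the highest mutant library, A-line HET replicate 1, and the 3 G-line HOM libraries and A-line HOM were the lowest. The log2 fold change was -4.03 ± 0.39 in G-line HOM (95% interval -4.94 to -3.12; edgeR adjusted p = 5.25e-05). Phkg1 and Pfkp were the 2 members called in all 4 comparisons with WT. Phkg1 was lower at -1.67 ± 0.34 in G-line HET, -1.98 ± 0.35 in A-line HET and -3.50 ± 0.62 in A-line HOM (edgeR adjusted p = 0.0131, 0.00661 and 0.0103). Phkg1 exons overlap 630 bases of Sumf2 on the opposite strand. Sumf2 was at 3.93 ± 0.279 CPM in G-line HOM, against 6.04 ± 0.674 CPM in WT (SD, n = 3 each), a log2 fold change of -0.62 ± 0.20 (edgeR adjusted p = 0.0303), and reads of the shared stretch cannot be told apart. Phka1, the muscle regulatory subunit of the same kinase, was called higher in G-line HOM (0.51 ± 0.16, edgeR adjusted p = 0.0360). Its libraries stood at 125, 97.6 and 67.6 CPM in G-line HOM, against 70.6, 65.3 and 68.6 CPM in WT, so replicate 3 fell within WT. The part of that library's low erythroid sum and high mitochondrial ribosomal RNA share was not tested. The call was lost without any one of 5 libraries, G-line HOM replicates 1 and 2 and the 3 WT libraries (edgeR adjusted p up to 0.151).

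The phosphorylase genes themselves were both lower. Pygb, the brain-type glycogen phosphorylase gene, stood at 534, 732 and 672 CPM in the G-line HOM libraries, 997, 885 and 884 in G-line HET, 910.1, 572 and 749 in A-line HET and 726 in A-line HOM, against 937, 947 and 1054 CPM in WT. All 3 G-line HOM libraries lay below all WT libraries, though G-line HOM replicate 2 was above A-line HET replicate 2. The log2 fold change was -0.60 ± 0.15 (edgeR adjusted p = 0.00897). Pygm, the muscle phosphorylase, ranged over 440.1 to 483 CPM in G-line HOM, 743 to 797 in G-line HET, 605 to 756 in A-line HET and 680.2 in A-line HOM, against 716 to 802 CPM in WT, with -0.70 ± 0.10 on the log2 scale in G-line HOM (edgeR adjusted p = 0.000149).

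Glycogen synthesis changed in all 4 genes too, 2 in each direction. Ugp2, which makes UDP-glucose, the building block of glycogen, stood at 368, 370.4 and 326 CPM in the G-line HOM libraries, 362, 355 and 337 in G-line HET, 257, 291 and 219.7 in A-line HET and 277 in A-line HOM, against 261, 241 and 243 CPM in WT. All G-line libraries, HOM and HET, lay above all WT libraries, and A-line HET overlapped WT. The log2 fold change was 0.51 ± 0.10 in G-line HOM (edgeR adjusted p = 0.00191). Gbe1, the branching enzyme, was higher at 77.4 to 85.9 CPM in G-line HOM, against 57.2 to 63.4 CPM in WT (0.46 ± 0.079, edgeR adjusted p = 0.000708). Gys1, the muscle glycogen synthase that adds glucose to the chain, was lower, at 50.7 to 56.02 CPM in G-line HOM, against 83.8 to 97.3 CPM in WT (-0.75 ± 0.13, edgeR adjusted p = 0.000929). Pgm1, which converts glucose 6-phosphate to glucose 1-phosphate on the way to glycogen and back, was lower as well, at 118 to 136 CPM in G-line HOM, against 204 to 227 CPM in WT (-0.74 ± 0.12, edgeR adjusted p = 0.000376). Gys1 exons overlap 290 bases of Ruvbl2 on the opposite strand, which was not called in that comparison (edgeR adjusted p = 0.164).

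**Figure D3:**
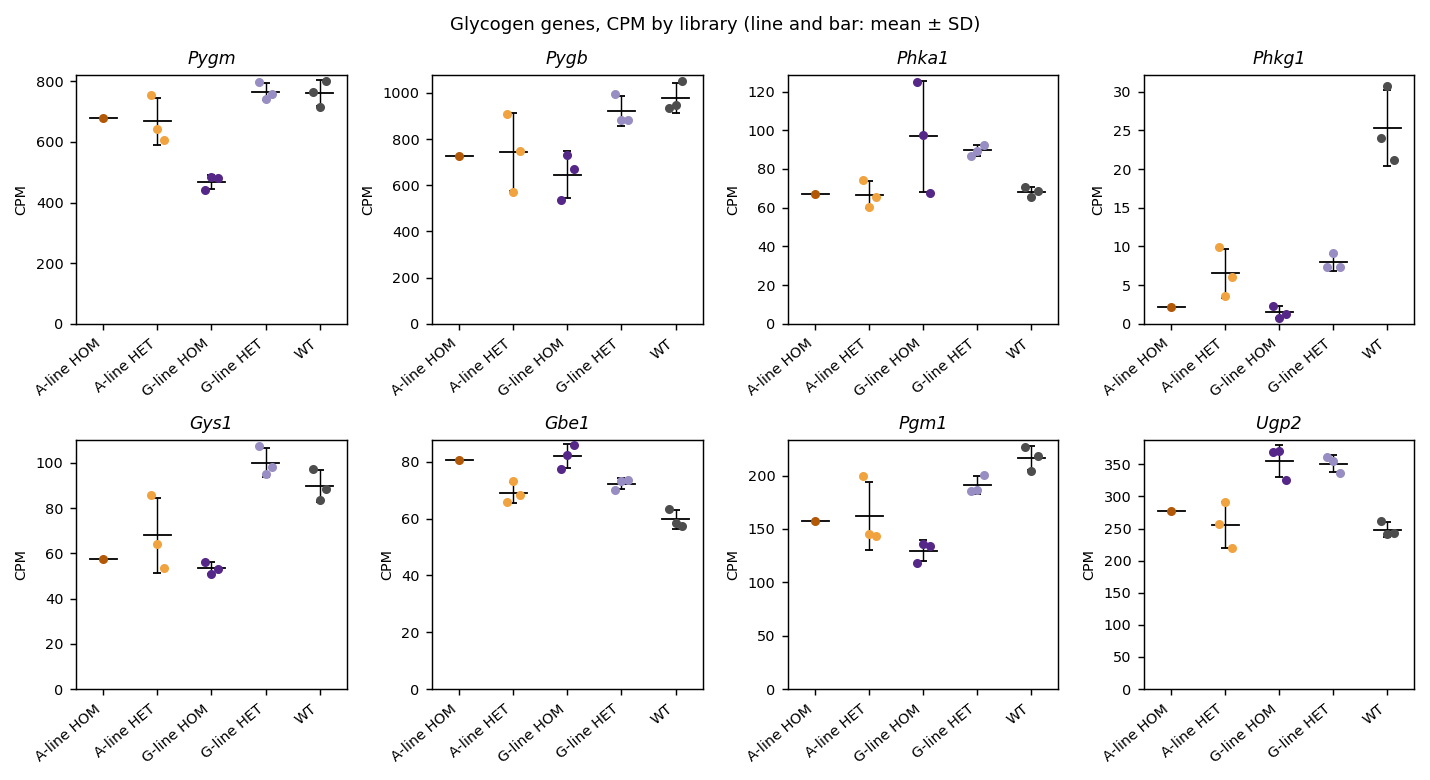
CPM in each of the 13 libraries for the 8 glycogen genes; points are libraries, lines and bars the mean ± SD. Phkg1 is below 3 CPM in all G-line HOM libraries and above 21 CPM in all WT libraries, and Gbe1 lies above WT where Gys1 and Pgm1 lie below it in G-line HOM.

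The balance of isoforms can be set out within each library as the log2 ratio of counts, which is not per length and is given as a description without a test. Slc2a1 over Slc2a4 was -3.78 ± 0.44 in G-line HOM, -4.91 ± 0.20 in G-line HET, -4.62 ± 0.64 in A-line HET and -4.72 in A-line HOM, against -5.69 ± 0.11 in WT (SD, n = 3 except A-line HOM). Hk1 over Hk2 was -0.13 ± 0.34 in G-line HOM, -0.81 ± 0.19 in G-line HET, -0.55 ± 0.27 in A-line HET and -0.71 in A-line HOM, against -1.77 ± 0.12 in WT. Pfkp over Pfkm was -2.14 ± 0.22 in G-line HOM, -2.86 ± 0.14 in G-line HET, -2.92 ± 0.25 in A-line HET and -2.95 in A-line HOM, against -3.69 ± 0.055 in WT. In these 3 pairs every mutant library was above every WT library. G-line HOM had the highest mean in each. Pgam1 over Pgam2 was -3.29 ± 0.13 in G-line HOM, against -4.49 ± 0.12 in WT. Ldha over Ldhb was -0.57 ± 0.30 in G-line HOM, against -1.50 ± 0.072 in WT. For Ldha over Ldhb too, every mutant library was above every WT library, and G-line HOM had the highest mean. Eno1 over Eno3 was -2.16 ± 0.49 in G-line HOM, against -3.57 ± 0.26 in WT, while G-line HET at -3.64 to -3.28 overlapped WT at -3.72 to -3.27. A-line HET replicate 1 lay nearest to WT of its group in the Slc2a1, Hk1, Pfkp, Pgam1 and Eno1 ratios. Pygb over Pygm was 0.46 ± 0.16 in G-line HOM, against 0.36 ± 0.064 in WT, with overlapping libraries.

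**Figure D4:**
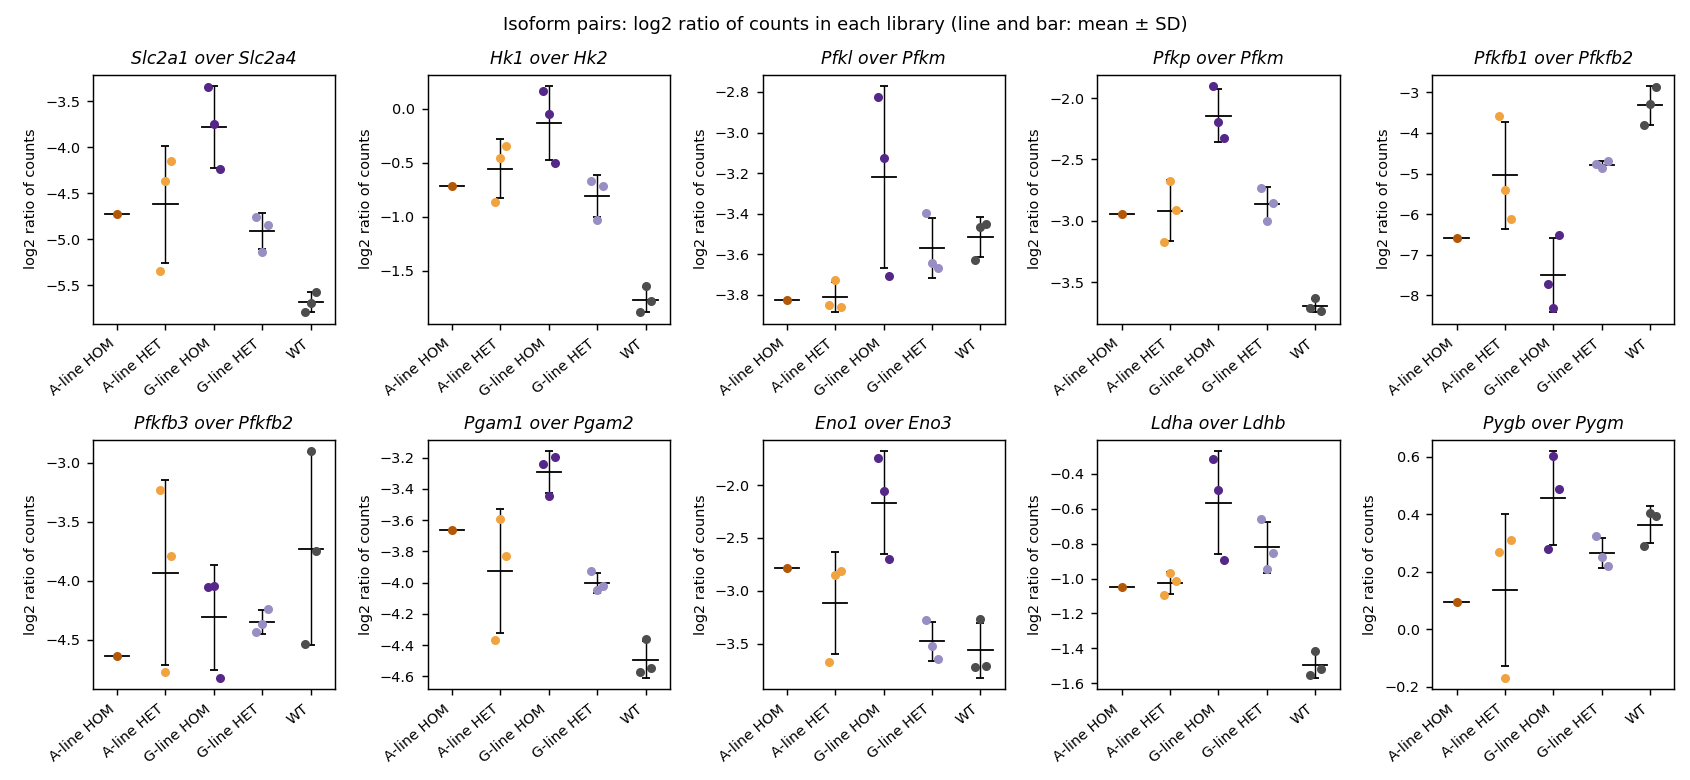
Log2 ratio of counts within each library for 10 isoform pairs; points are libraries, lines and bars the mean ± SD, and each panel has its own scale. For Slc2a1 over Slc2a4, Hk1 over Hk2, Pfkp over Pfkm and Ldha over Ldhb all mutant points lie above the WT points, with G-line HOM highest on average.

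Fewer members were called with 1 copy of S639G. In G-line HET against WT, 8 of 30 were called, 6 higher and 2 lower, where 7.52% of all genes tested were called, 3.97% higher and 3.54% lower (edgeR quasi-likelihood test). Higher were Slc2a1 (0.63 ± 0.16), Hk1 (0.59 ± 0.11), Pfkp (0.86 ± 0.10), Pgam1 (0.62 ± 0.12), Gbe1 (0.28 ± 0.079) and Ugp2 (0.50 ± 0.10), all log2 fold changes ± SE. The 2 lower genes were Ldhb (-0.44 ± 0.12) and Phkg1. None of Slc2a4, Hk2, Pfkm, Pgam2, Eno3 or Gys1 passed, with log2 fold changes of -0.15, -0.38, 0.024, 0.13, 0.063 and 0.16 in that order. The median was 0.11 over the members and -0.014 over all genes tested. Hk1, Pfkp, Pgam1 and Ugp2 passed with any 1 library left out. Phkg1 lost its call without G-line HET replicate 1 or 3 (edgeR adjusted p up to 0.0741), and Slc2a1 without either of these or any WT library (up to 0.144). Ldhb lost it without any G-line HET library, G-line HOM replicate 2 or WT replicate 1 or 3 (edgeR adjusted p up to 0.154). Gbe1 held it without 4 of the 13 libraries only (edgeR adjusted p up to 0.173), and lost it without any G-line HET or WT library, A-line HET replicate 3, the A-line HOM library or replicate 2 of G-line HOM. With the shared pair left out 1 member was called, with it as A-line HOM 0 and with it in both groups 4.

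One copy of S637A gave a similar number. In A-line HET against WT, 7 of 30 members were called, 3 higher and 4 lower, beside 7.96% of all genes tested, 3.99% higher and 3.97% lower (edgeR quasi-likelihood test). Slc2a1 (0.62 ± 0.17), Hk1 (0.50 ± 0.11) and Pfkp (0.66 ± 0.10) were higher. Hk2 (-0.71 ± 0.14), Ldhb (-0.54 ± 0.12), Phkg1 and Pgm1 (-0.41 ± 0.12) were lower. Pgam1 and Ugp2, called in G-line HET, had 0.089 and 0.042 here and were not called. The median was -0.084 over the members and 0.018 over all genes. Hk2, Pfkp and Phkg1 kept their calls with any 1 library left out, while Hk1 lost it without WT replicate 3 (edgeR adjusted p = 0.0593). Slc2a1 lost its call without A-line HET replicate 2 or 3, G-line HET replicate 3 or any WT library (edgeR adjusted p up to 0.141), and Ldhb without A-line HET replicate 2 or 3 or WT replicate 1 or 3 (up to 0.0676). Pgm1 held it without 4 of 13 libraries, and lost it without A-line HET replicate 2 or 3, G-line HOM replicate 2 or any G-line HET or WT library (edgeR adjusted p up to 0.183). None of the 7 calls held under any of the 3 other treatments of the shared pair. The count was 14 without A-line HET replicate 1, whose Slc2a4, Eno3 and Pfkfb1 lay nearest to WT, and 4 without the libraries that held atrial transcripts. Over all genes tested the number called moved in the same direction, from 1400 to 2038 and to 651.

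For 2 copies of S637A there is 1 library, assumed to vary like the others. In A-line HOM against WT, 3 of 30 members were called, 2 higher and 1 lower, while 4.68% of all genes tested were called, 2.82% higher and 1.86% lower (edgeR quasi-likelihood test). Pfkp (0.61 ± 0.14) and Gbe1 (0.44 ± 0.11) were higher and Phkg1 lower. The values of Slc2a4 (-0.50 ± 0.25), Hk2 (-0.60 ± 0.21), Gys1 (-0.65 ± 0.20) and Eno3 (-0.60 ± 0.28) did not pass. The median was -0.16 over the members and -0.015 over all genes tested. Phkg1 passed with any 1 library left out, whereas Pfkp lost its call without WT replicate 1 or 3 (edgeR adjusted p up to 0.0612). Gbe1 lost it without G-line HET replicates 2 or 3, replicate 2 of G-line HOM, or WT replicate 2 or 3 (edgeR adjusted p up to 0.109). All 3 calls were lost in each of the 3 other treatments of the shared pair.

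Within the G-line, every member called between 2 copies and 1 copy of S639G was lower with 2. In G-line HOM against G-line HET 12 of 30 members were called, all lower, where 14.6% of all genes tested were called, 6.22% higher and 8.42% lower (edgeR quasi-likelihood test). They were Slc2a4 (-0.97 ± 0.17), Hk2 (-0.65 ± 0.14), Pfkm (-0.64 ± 0.11), Pfkfb1 (-2.27 ± 0.53), Gapdh (-0.68 ± 0.14), Pgam2 (-0.91 ± 0.15), Eno3 (-1.03 ± 0.20), Pygm (-0.71 ± 0.10), Pygb (-0.51 ± 0.15), Phkg1 (-2.36 ± 0.39), Gys1 (-0.91 ± 0.13) and Pgm1 (-0.56 ± 0.12). The 6 members called higher than WT in both genotypes were not called between them. Their log2 differences, with 95% intervals, were 0.17 (-0.20 to 0.54) for Slc2a1, 0.025 (-0.22 to 0.27) for Hk1, 0.076 (-0.15 to 0.31) for Pfkp, 0.015 (-0.22 to 0.25) for Ugp2, -0.20 (-0.48 to 0.075) for Pgam1 and 0.18 (0.00057 to 0.36) for Gbe1. Gbe1 stood at 77.4 to 85.9 CPM in G-line HOM and 70.05 to 73.6 CPM in G-line HET, without overlap (edgeR adjusted p = 0.135). The median was -0.26 over the members and 0.036 over all genes tested. Calls of 10 of the 12 held with any 1 library left out, and without G-line HOM replicate 3 Eno1 was called as well, higher in G-line HOM. Pfkfb1 lost its call without any G-line HET library or G-line HOM replicate 1 or 2 (edgeR adjusted p up to 0.0850), and Pygb without any G-line HET library or G-line HOM replicate 1 or 3 (up to 0.128). The WT libraries enter the shared fit, and 9 members were called with the shared pair as A-line HOM, 11 with it left out and 9 with it in both groups. Pygb then lost its call in all 3 treatments, and Phkg1 and Pfkfb1 with the pair as A-line HOM or in both groups (for Phkg1, edgeR adjusted p up to 0.114). Beside this, 4 of 9 heart muscle markers were lower in G-line HOM than in G-line HET, and their part in the result was not tested.

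The heterozygotes of the 2 lines were set against each other directly. In A-line HET against G-line HET no member was called by the edgeR quasi-likelihood test, 9 had an unadjusted p under 0.05, and DESeq2 called 4 (Pgam1, Pgam2, Gys1 and Ugp2, all lower in A-line HET). Over all 17588 genes tested edgeR called 0.0284%, 0.0114% higher and 0.0171% lower. An unadjusted p under 0.05 was reached by 2331 of them, and DESeq2 called 218. Pgam1 averaged 15.7 ± 1.67 CPM in A-line HET and 22.8 ± 2.63 CPM in G-line HET (SD, n = 3 each), a log2 difference of -0.53 ± 0.12 with a 95% interval of -0.82 to -0.25 (edgeR adjusted p = 0.136). Ugp2 averaged 256 ± 35.5 CPM in A-line HET and 351 ± 12.9 CPM in G-line HET, a log2 difference of -0.46 ± 0.10 (edgeR adjusted p = 0.122). Without A-line HET replicate 1, 7 members were called by edgeR, beside 607 of all genes. The median was -0.22 over the members and 0.022 over all genes.

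Other genes around these steps were read from 5 lists of 87 symbols, of which 80 were tested. In G-line HOM against WT, 39 of the 80 were called, 15 higher and 24 lower, which is 48.8% beside 26.4% of all genes tested, with a median log2 fold change of -0.069. In G-line HET 8 were called (5 higher, 3 lower), or 10% beside 7.52% of all genes. In A-line HET 13 were called (2 higher, 11 lower), or 16.2% beside 7.96%, and in A-line HOM 5 (4 higher, 1 lower), or 6.25% beside 4.68%. The shares in G-line HET and A-line HOM thus lay near those over all genes. Of 17 other isoforms of the same steps, 1 was higher and 2 lower in G-line HOM, a share of 17.6% that lay below the 26.4% of all genes. Slc2a12, the glucose transporter GLUT12, was lower (-2.21 ± 0.29 on the log2 scale, edgeR adjusted p = 9.59e-05), with 1.44, 2.12 and 2.63 CPM in G-line HOM, against 9.58, 8.21 and 10.5 CPM in WT. It was lower in G-line HET and A-line HET as well, but not without any G-line HET library or WT replicate 1 or 3 for G-line HET (edgeR adjusted p up to 0.139), nor without A-line HET replicate 2 or 3 or WT replicate 3 for A-line HET (up to 0.0609). Neither heterozygote call of Slc2a12 held under any of the 3 other treatments of the shared pair. Slc2a10, another transporter gene, was higher (1.15 ± 0.32) and Phka2, the liver regulatory subunit of phosphorylase kinase, lower (-0.42 ± 0.12). Both calls were lost without G-line HOM replicate 1 or WT replicate 1 or 3 (edgeR adjusted p up to 0.0694 for Slc2a10 and 0.0890 for Phka2).

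Among 12 genes of the glycogen particle and of lysosomal glycogen, 3 were higher and 4 lower in G-line HOM (58.3% called). Gyg, the primer protein glycogenin on which glycogen is started, was higher (0.72 ± 0.11, edgeR adjusted p = 0.000236), and so was Ppp1r3c, a subunit that brings protein phosphatase 1 to glycogen (1.09 ± 0.16, edgeR adjusted p = 0.000252). Stbd1, a glycogen-binding protein linked to its lysosomal breakdown, was higher (1.17 ± 0.27, edgeR adjusted p = 0.00713), with 17.4, 19.8 and 21.1 CPM in G-line HOM, against 6.96, 10.7 and 8.09 CPM in WT. Ppp1r3b, another glycogen-targeting subunit, was lower (-0.61 ± 0.13). Of 14 genes between the insulin receptor and the transporter, 3 were higher and 3 lower (42.9% called). Tbc1d4, which holds back GLUT4 vesicles until insulin acts, was lower (-0.75 ± 0.083, edgeR adjusted p = 3.60e-05), as was Rab10, a GTPase of those vesicles (-0.42 ± 0.094). Irs1, an adaptor of the insulin receptor, was higher (1.26 ± 0.19, edgeR adjusted p = 0.000411) with 162, 172 and 124 CPM in G-line HOM, against 68.1, 57.03 and 66.00 CPM in WT. Pdpk1, a kinase that activates AKT, was higher (0.28 ± 0.077), but not without G-line HOM replicate 2 or WT replicate 1 or 2 (edgeR adjusted p up to 0.0555).

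Of 18 energy sensors and transcription factors of the pathway, 4 were higher and 9 lower in G-line HOM (72.2% called). Lower were Egln1, the prolyl hydroxylase that marks HIF for breakdown (-0.83 ± 0.092, edgeR adjusted p = 3.76e-05), and Prkab1, a subunit of AMP-activated kinase (-0.96 ± 0.14, edgeR adjusted p = 0.000275). Mlxip and Mlxipl, which encode the glucose-sensing factors MondoA and ChREBP, were lower, with log2 fold changes of -0.46 ± 0.093 for Mlxip and -0.76 ± 0.16 for Mlxipl. Of 19 genes of lactate transport, side branches and reversal, 4 were higher and 6 lower (52.6% called). Fbp2, the muscle fructose bisphosphatase that runs against phosphofructokinase, was lower (-2.25 ± 0.25, edgeR adjusted p = 7.91e-05), with 4.22, 7.73 and 8.41 CPM in G-line HOM, against 29.03, 29.3 and 37.4 CPM in WT. Sord, of the polyol side branch, was lower (-1.84 ± 0.27). Gpd1 and Gpd2, the cytosolic and mitochondrial glycerol phosphate dehydrogenases, were lower too (-0.96 ± 0.18 for Gpd1 and -0.65 ± 0.13 for Gpd2). With the shared pair as A-line HOM, the G-line HOM calls of Slc2a10, Gyg, Ppp1r3c, Ppp1r3b, Stbd1, Irs1, Pdpk1, Mlxipl, Gpd1 and Gpd2 were lost. With it left out, those of Slc2a10, Ppp1r3b, Pdpk1 and Gpd1 were lost. Both treatments leave WT replicate 1 as the only WT library. Fbp2, Sord and Gpd2 were also lower in A-line HET. Fbp2 lost that call in each of the 3 other treatments of the shared pair. Sord lost that call without A-line HET replicate 2 or 3 or WT replicate 1 or 3 (edgeR adjusted p up to 0.0971), and Gpd2 without A-line HET replicate 2 or 3 or WT replicate 1 or 2 (up to 0.131). Gyg, Tbc1d4, Irs1 and Prkab1 were called in the same direction in both heterozygotes, Ppp1r3c in G-line HET, and Rab10 and Egln1 in A-line HET. With any 1 library left out, Tbc1d4 and Prkab1 held in both, and Irs1 and Egln1 in A-line HET. The rest of these calls did not. All of them were lost with the shared pair as A-line HOM.

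**Figure D5:**
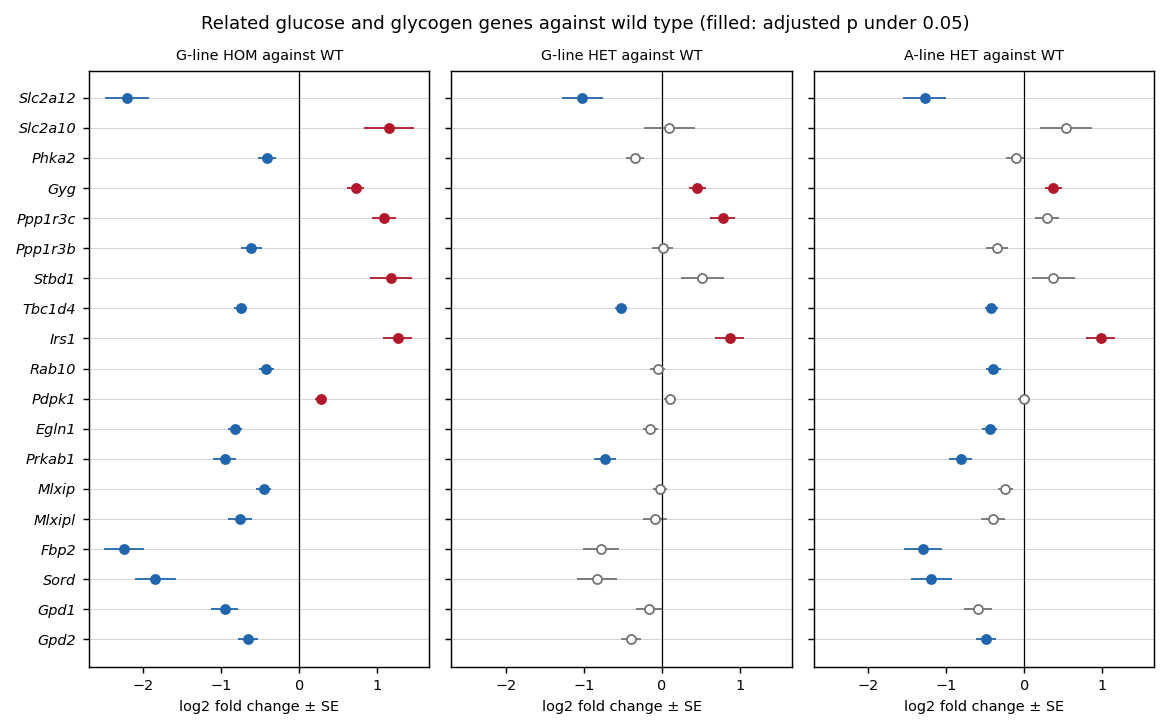
Log2 fold change ± SE of 19 related genes in G-line HOM, G-line HET and A-line HET against WT; filled points passed the test, red higher and blue lower. The 19 were chosen by the smallest adjusted p in the comparison of the left panel, so that filled points there largely follow from the choice. All 19 are filled in that panel, 6 to the right of 0 and 13 to the left, and Fbp2 lies farthest left at -2.25.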

How the data were processed

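RNA was taken from left ventricles with TRIzol, cleaned of DNA with DNase and made into Illumina TruSeq total RNA libraries, per the labels' protocols. For the reads, bcl2fastq 2.20.0.422, Trimmomatic 0.39 and STAR 2.7.4a are named, with mm39 (GRCm39) as the build, per the submitters' processing notes. The deposited values are raw counts for each of 40174 gene symbols, whole numbers that the authors left without normalization, in 3 tables. No counting program, annotation or strand setting is given in the sources used here. Reads may also be divided wrongly between a gene and its processed copies, such as those of Gapdh, Aldoa and Eno1.

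Sample titles gave the groups and the replicate numbers, and members were looked up by symbol. The filter asked for 3 libraries at 0.422 CPM, which is 10 counts in the median library, and for 15 counts in total, and 17588 genes passed. CPM were computed from the deposited counts with TMM factors. All 13 libraries entered 1 robust quasi-likelihood fit in edgeR 4.0.16 (R 4.3.3), with 5 group means and 8 residual degrees of freedom. Its F test, two-sided, gave 6 comparisons. P-values were adjusted by Benjamini-Hochberg over the 17588 genes, and 0.05 was the threshold. SE is the log2 fold change divided by the square root of F. The 4 comparisons with WT share the WT libraries. Exon lengths and overlaps came from GENCODE M21 (GRCm38), matched by symbol, and promoters from RefSeq (GRCm38.p6). No coordinate was converted. The procedure was tested on simulated data.

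The members, the related and marker lists and the rules were chosen with earlier results of these data known. By the rule for named genes, a member was given in every library where it passed by over 1 on the log2 scale in any comparison or led its step by mean CPM, and up to 4 genes of each related list with the smallest adjusted p in G-line HOM against WT were named if called in any comparison. Of the related lists, 3 genes are not reported here and are left out of the counts. Genes that overlap a member on the opposite strand by 100 bases or more were looked at after member values had been seen. Gm12868, which overlaps Slc2a1 by 105 bases, and Gm26762, which overlaps Gpi1 by 145, were not found by symbol among the counts. Their share of the reads could not be looked at. Alternatives were DESeq2 1.42.0, its size factors in edgeR, 2 other filters, fits of the compared groups alone, a block for the replicate number, omission of gene classes, of each library, of the libraries with atrial transcripts (at least 10 CPM of Myl7) and of those with shifted clock genes (at least 20 CPM of Arntl), and the 3 other treatments of the shared pair.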

Additional observations from a re-analysis of the deposited data

How the results depend on the processing

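With a single library left out, the number of members called was 17 to 21 in G-line HOM against WT (21 with all 13), 4 to 9 in G-line HET (8), 3 to 14 in A-line HET (7), 1 to 8 in A-line HOM (3), 10 to 14 in G-line HOM against G-line HET (12) and 0 to 7 in A-line HET against G-line HET (0). The treatment of the shared pair moved the counts in all 4 comparisons with WT and in G-line HOM against G-line HET. Used as A-line HOM, which leaves 1 WT library, it gave 9 in G-line HOM and 0 in G-line HET, A-line HET and A-line HOM. Left out, it gave 13, 1, 0 and 0 in that order, and in both groups 21 in G-line HOM, 4 in G-line HET and 0 in each A-line group. In G-line HOM against G-line HET it gave 9 as A-line HOM, 11 left out and 9 in both groups. No called member changed sign under any alternative. The number of all genes called moved with the settings too. It went from 4640 to 3284 in G-line HOM against WT without WT replicate 3. In A-line HET against WT it went from 1400 to 2038 without A-line HET replicate 1. Slc2a4, Hk2, Pfkm, Pfkp, Ldhb, Pygm, Phkg1, Gys1 and Pgm1 passed in G-line HOM against WT under all 12 alternatives other than single libraries left out. DESeq2 called 6 in A-line HOM and 4 in A-line HET against G-line HET, the compared groups alone gave 12 in A-line HOM, and no filter beyond 1 count gave 3 in A-line HET against G-line HET. Without the libraries with atrial transcripts 4 were called in A-line HET and 5 in A-line HOM. The cause was not tested. Same-numbered libraries did not deviate together (correlations of -0.296 to 0.189 over 18 pairs), and the replicate number as a block gave 21 members called in G-line HOM against WT, 5 in G-line HET, 6 in A-line HET, 2 in A-line HOM and 11 in G-line HOM against G-line HET. Depth limits Aldoc. Among members of few counts, Pfkfb1 and Phkg1, with means of 8.74 and 9.69 CPM, had wider errors than Slc2a1, with 9.08 CPM.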

Other observations

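Most fast skeletal muscle markers were at or near 0, among them Myh1, Myh2, Myh4 and Mylpf, all under 1 CPM in every library. Actn3 was under 1 CPM throughout too, and Pvalb and Atp2a1 reached 1.81 and 3.72 CPM at most, in A-line HET replicate 3. The highest levels of the list, chosen here after their values were seen, were those of 2 fast troponin genes. Tnni2, the fast troponin I, stood at 2.53, 0.518 and 4.65 CPM in G-line HOM, 23.4, 36.9 and 27.99 in G-line HET, 32.9, 30.96 and 19.8 in A-line HET and 6.86 in A-line HOM, against 0.558, 1.70 and 1.29 CPM in WT. It was called higher in G-line HET (4.61 ± 0.60) and A-line HET (4.53 ± 0.61) and lower in G-line HOM than in G-line HET (-3.51 ± 0.55), all log2 fold changes ± SE by the edgeR quasi-likelihood test. Tnnt3, the fast troponin T, stood at 6.72, 1.60 and 4.09 CPM in G-line HOM, 2.16, 2.24 and 2.09 in G-line HET, 1.42, 2.74 and 11.9 in A-line HET and 1.83 in A-line HOM, against 0.301, 0.227 and 0.292 CPM in WT.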
